A study of Mus musculus with 8 samples.

Results

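Genes that mark B cells carried few counts in mouse spleen and lymph node cells cultured under T cell stimulation, and those counts were compared here in 8 RNA sequencing libraries. The 9 genes form a list by symbol, with no threshold on their values, drawn up with earlier results of these data known: Ms4a1, Cd79a, Cd79b, Pax5, Ebf1, Blk, Cd22, Fcer2a and Cr2, out of 52636 genes in the count table. All 9 were found in the GENCODE M21 annotation, and all 9 had counts. Between the strain labels, Cd79b, Cd79a and Pax5 were higher in the libraries labelled TCR1640 in both sexes. The call averaged over sex held in all 17 alternative fits for Cd79b, in 16 of 17 for Cd79a and in 10 of 16 for Pax5. In the main fit 13.4% of all genes were called higher and 13.1% lower. The alternatives reuse the same counts, so they are not independent. Those that took the 8 columns as separate samples called 7834 and 7856 of 15795 genes. With opposite-strand features added, Pax5 was no longer apart in females. Cd22 was lower under the TCR1640 label in males, but the feature on its opposite strand went the other way. No member was called between the sexes when averaged over strain labels, where 0.139% of genes were called higher and 0.962% lower in males. Most counts in the table appear to lie on the strand opposite to the mRNA, as shown with the libraries, so the values below are counts and should not be read as mRNA levels.

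Cells came from spleens and lymph nodes of TCR1640 or SJL/J mice of either sex, aged 35 to 55 days and without symptoms of disease. TCR1640 is an SJL/J line whose T cells bear a transgenic receptor for a myelin antigen, and SJL/J mice served as the wild-type control. All 4 groups (TCR1640 female, TCR1640 male, SJL/J female, SJL/J male) received the same culture of 4 days with anti-CD3 and the cytokines IL-6, IL-12, IL-23 and TGF-β, labelled a TH1/TH17 stimulation. The labels call the material immune cells, with no sort for B or T cells, and they leave unsaid whether separate mice gave the 2 libraries in each group. No library from uncultured cells was analysed here, so the values describe cells after culture only.

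Mature B cells recognise antigen through surface immunoglobulin, which signals through the paired chains Cd79a and Cd79b. Ebf1 and Pax5 are the transcription factors that set and hold B cell identity, and they act on Cd79a and other genes of the lineage. Anti-CD3 acts through the T cell receptor complex, so this culture supplies no direct signal to the B cell receptor. In bulk RNA, fewer B cells and less RNA per B cell cannot be told apart.

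Column totals ran from 3765291 to 5116467 counts. Within a group the 2 columns were close to sampling noise (chi-square per degree of freedom 1.05 to 1.08 within groups, 3.12 to 17.1 between them). They were therefore summed and counted as 1 sample, so that n = 1 in each group and ratios of 2 groups carry no p-value. The sex-linked genes Xist, Eif2s3y and Ddx3y matched the sex labels in all 8 columns. T cell receptor segments went against the strain labels: under the SJL/J label Trbv2 made up 58.3% (females) and 63.1% (males) of beta variable counts, but 19.7% and 20.6% under the TCR1640 label. Traj43 made up 75.6% and 79.2% of alpha joining counts under the SJL/J label, and 5.04% and 2.91% under the TCR1640 label. A receptor transgene would narrow this usage, so every strain direction below is one between libraries labelled TCR1640 and libraries labelled SJL/J. The library kit was stranded, and the strand setting of the counting is not given in the sources used here. Features with exon bases opposite to another gene's exons, or with no position, held 68.1% to 69.9% of the counts in each group. Reads of a member and of a feature opposite to it therefore cannot be told apart. In a check added after the data were seen, coding genes were paired with noncoding features that share at least 200 exon bases on the other strand and with at least 20 counts in the pair. The noncoding feature had more counts per exon base in 83.0% of 1062 pairs in TCR1640 females, 83.2% of 1076 in TCR1640 males, 84.2% of 1105 in SJL/J females and 83.7% of 1090 in SJL/J males. Of the 20 features with most counts in each group 12 were not protein-coding, and Gapdh, an abundant glycolytic enzyme, was at 108 to 162 CPM (counts scaled to a library of 1000000). A stranded kit counted with the opposite setting gives such a table. All member counts, those of Cd79a and Cd79b included, would then be the few reads assigned against the strand of the library, and whether these keep a fixed proportion to the mRNA was not tested.

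Stretches before the start sites are shown for Cd79a, Pax5 and Cd22, the members called between strain labels by the additive fit over both sexes (below 0.05 after adjustment) for which a sequence was at hand, since Ebf1 and Pax5 act through such regions. They come from RefSeq windows of 250 bases before each start on GRCm38.p6, which matched 6 of the 9 members (Cr2, Pax5, Cd79a, Cd22, Fcer2a and Ebf1). Bases in an annotated exon were left out, which took 116 bases from the Cd79a window and 102 from the Cd22 window. Capitals mark matches, on either strand, to an EBF core (CCCNNGGG), an octamer (ATTTGCAT), an E2A E-box (CAGGTG) or a PU.1 core (GAGGAA). No motif of Pax5 itself was searched. The Cd79a stretch is chr7:24897247-24897380 on the plus strand. The Pax5 stretch is chr4:44710695-44710944 on the minus strand. The Cd22 stretch is chr7:30879029-30879176 on the minus strand, which lies in an intron of longer Cd22 transcripts.
Cd79a: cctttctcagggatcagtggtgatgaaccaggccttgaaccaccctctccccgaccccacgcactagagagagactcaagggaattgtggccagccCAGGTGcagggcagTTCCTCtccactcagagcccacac
Pax5: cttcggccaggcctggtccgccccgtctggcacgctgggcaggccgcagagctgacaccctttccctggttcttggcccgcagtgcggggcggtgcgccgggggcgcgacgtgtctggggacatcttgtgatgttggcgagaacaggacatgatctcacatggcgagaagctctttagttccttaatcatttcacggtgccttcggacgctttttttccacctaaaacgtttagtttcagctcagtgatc
Cd22: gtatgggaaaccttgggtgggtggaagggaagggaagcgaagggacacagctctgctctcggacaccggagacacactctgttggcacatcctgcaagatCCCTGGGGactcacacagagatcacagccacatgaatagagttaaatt

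The Cd79a stretch held an E-box 154 bases and a PU.1 core 140 bases before the RefSeq start, and the Cd22 stretch held an EBF core 48 bases before it. The Pax5 stretch held none of the 4 motifs. It lies before a RefSeq start, and the GENCODE gene starts further in, at 44710487, so the bases next to that start were not searched. Over the same positions of all 32851 RefSeq windows, 9.75% held the E-box and 13.3% the PU.1 core for the Cd79a stretch of 134 bases, and 7.64% held the EBF core for the Cd22 stretch of 148 bases. Over the full 250 bases, as for Pax5, 11.8% held the EBF core, 1.60% the octamer, 17.2% the E-box and 23.3% the PU.1 core. A match is a run of letters, not a measured binding site.

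Cd79a carried more counts than any other member in all 4 groups. Member counts summed to 416 in TCR1640 females, 521 in TCR1640 males, 280 in SJL/J females and 300 in SJL/J males. That is 52.4 CPM (exact 95% interval 47.5 to 57.7), 52.1 (47.7 to 56.7), 33.4 (29.6 to 37.6) and 39.1 (34.8 to 43.7), intervals that cover counting error only. Cd79a alone made up 49.8%, 46.4%, 45.0% and 40.7% of these sums in the same order. Per kilobase of exon, in CPM on libraries scaled by TMM, a correction for library composition that holds for all CPM values below, and averaged over the 4 groups, Cd79a stood at 13.9 and Cd79b at 2.63. Cd22 followed at 1.35, Fcer2a at 0.713, Blk at 0.553, Pax5 at 0.439, Cr2 at 0.340, Ebf1 at 0.261 and Ms4a1 at 0.077. The order of Cd79b and Cd22 changed with the label: Cd79b was above Cd22 under the TCR1640 label, at 3.92 against 1.01 in females and 4.66 against 1.03 in males. Under the SJL/J label Cd22 was above, at 1.46 against 0.590 in females and 1.90 against 1.34 in males.

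The list had low counts beside T cell genes of the same libraries. The 9 members together stood at 1.14 and 1.11 CPM per kilobase in TCR1640 females and males and at 0.724 and 0.823 in SJL/J females and males. The 6 T cell markers (Cd3e, Cd3d, Cd3g, Cd5, Lck and Cd28) stood at 40.5, 44.8, 32.4 and 35.9 on that scale. Ms4a1, which encodes the defining B cell marker CD20, had at most 5 counts in a column. The B cell label of the list thus rests, in these counts, on Cd79a more than on any other member.

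**Figure D1:**
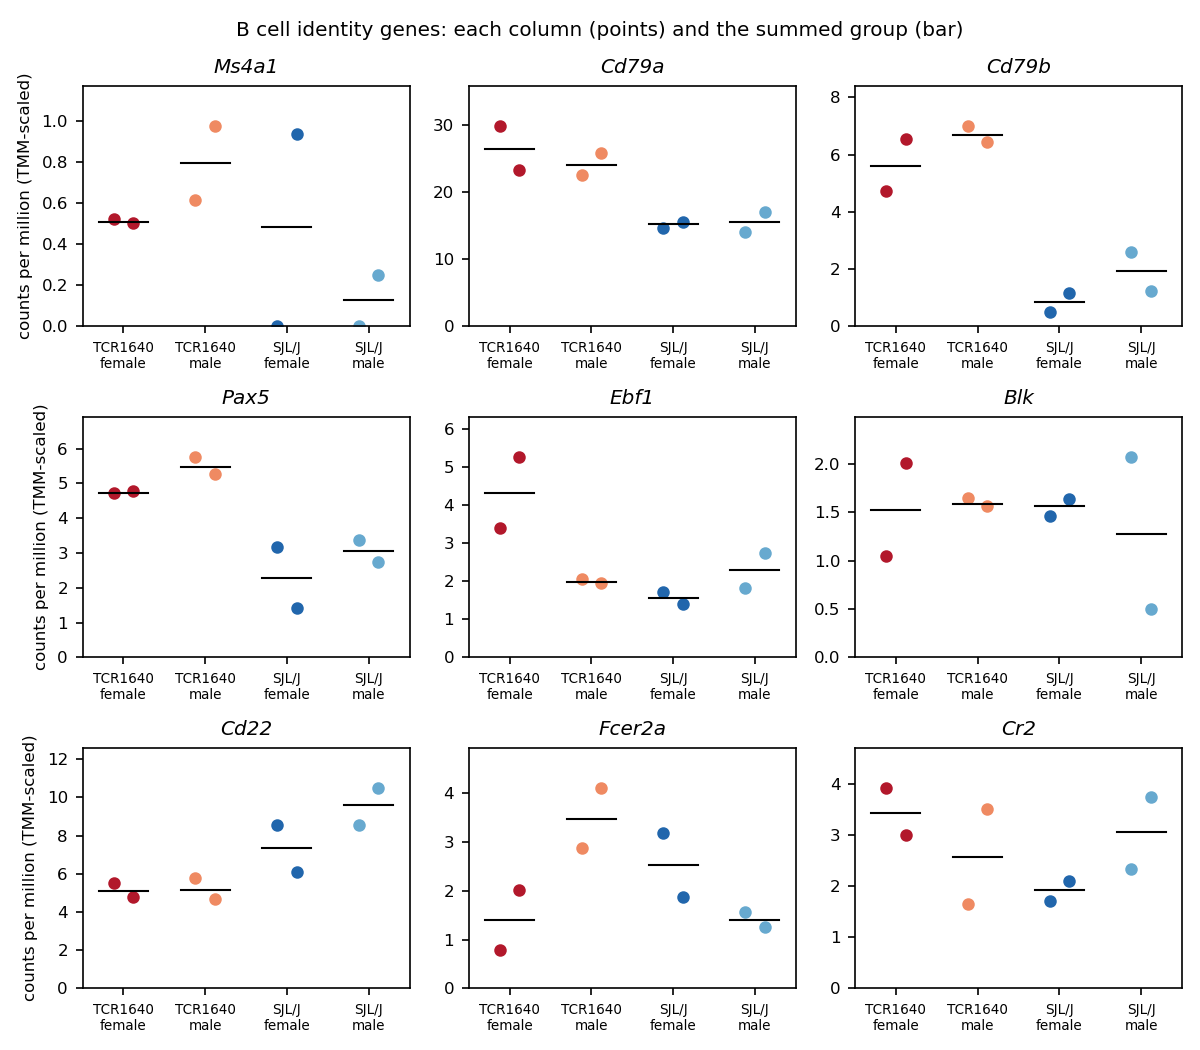
TMM-scaled CPM (vertical axis, from 0) for the 9 B cell identity genes in each of the 8 columns (points) and in the 2 summed columns of each group (bars), by strain label and sex. Cd79a, Cd79b and Pax5 have every TCR1640 column above every SJL/J column, and Cd22 has every TCR1640 column below every SJL/J column. The share of all genes whose columns separate by strain label in this way is not given here, so the separation does not set these members apart from other genes.

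A member was counted as higher or lower when it passed edgeR's filter on low counts, differed at least 1.5-fold, and had a 95% counting interval that excluded equality. Of the 9 members, 7 passed the filter, and Ms4a1 and Blk did not. The filter can keep a gene for 1 group alone. Cd79b had 2 to 10 counts in the SJL/J columns, Ebf1 6 to 11 outside TCR1640 females, and Fcer2a 3 to 13 outside TCR1640 males. Comparisons that put these members higher in their high groups are therefore not independent of the filter, which the shares over all genes also use. By this rule 4 members were higher and 0 lower in the female library labelled TCR1640, where 9.95% of the 15793 genes tested were higher and 11.5% lower. In males 4 were higher and 1 lower, against 11.7% and 13.9% of genes. The median log2 ratio over all 9 members was 0.80 in females and 0.63 in males, with all tested genes at a median of -0.0018 and -0.023. The male median was 0.14 without SJL/J male column 2 and 0.99 without SJL/J male column 1. No member differed between the 2 columns of a group by more than its counting interval, in 36 pairs. By the full rule, 2.03% to 2.25% of tested genes were apart between the 2 columns of a group. The share for the interval alone is not given here, and at low counts the intervals are wide. Non-overlap of TCR1640 and SJL/J columns is stated below for single members, also without its share over all genes. For averages over sex, an additive edgeR model of strain label and sex was fitted to the 4 summed samples. Its residual is the part of the strain difference that is not shared by the sexes, so its errors do not measure spread between mice. It tested 8 members (not Ms4a1) and called 3 higher and 1 lower under the TCR1640 label, where 13.4% of 17261 genes were higher and 13.1% lower.

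Cd79a (ENSMUSG00000003379, chr7:24897381-24902197, plus strand) encodes the signalling chain Igα of the B cell receptor. It had 29.9 and 23.3 CPM in the TCR1640 female columns, 22.6 and 25.8 in the TCR1640 male columns, 14.7 and 15.5 in SJL/J females and 14.0 and 17.0 in SJL/J males. All 4 columns labelled TCR1640 lay above all 4 labelled SJL/J. The share of all genes that separate in this way is not given, and the columns of a group count as 1 sample. The fold was 1.74 in females (log2 0.80, interval 0.47 to 1.13) and 1.54 in males (log2 0.63, 0.31 to 0.95). The additive edgeR fit gave a log2 change of 0.73 (SE 0.17, Benjamini-Hochberg adjusted p = 0.000181). The male fold lay close to the 1.5-fold limit and fell under it without TCR1640 male column 2 (log2 0.53) or without SJL/J male column 1 (0.50). DESeq2 on the same 4 sums gave an adjusted p of 0.136. Arhgef1, on the same strand 714 bases away, had 2055 to 4258 counts per group, and a part of it in the Cd79a counts was not tested.

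Cd79b (ENSMUSG00000040592, chr11:106311341-106314762, minus strand), the partner chain Igβ, differed more between the strain labels than any other member that passed the filter. Its columns held 4.72 and 6.53 CPM in TCR1640 females, 6.99 and 6.45 in TCR1640 males, 0.49 and 1.17 in SJL/J females and 2.59 and 1.25 in SJL/J males. The lowest TCR1640 column was above the highest SJL/J column, again without a share over all genes. In summed counts this was 44 against 7 in females and 67 against 15 in males. The ratios were 6.65-fold (log2 2.73, 1.57 to 4.13) and 3.47-fold (log2 1.80, 0.97 to 2.71). The additive edgeR fit gave 2.18 (SE 0.38, adjusted p = 2.09e-07), and this call held in all 17 alternatives run, DESeq2 included (adjusted p = 0.0170). The alternatives reuse the same counts. Cd79b had 2 to 10 counts in the SJL/J columns, so a call of higher under the TCR1640 label is not independent of the filter on low counts. With no filter beyond 1 count the log2 change was also 2.18. No annotated exon lies opposite to Cd79a or Cd79b.

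Cd79a and Cd79b pair in the receptor, and the ratio of their counts differed between the strain labels. Cd79a had 4.70 times the counts of Cd79b in TCR1640 females and 3.61 times in TCR1640 males, against 18.0 and 8.13 times in SJL/J females and males. The log2 difference between their strain ratios was 1.94 in females (0.74 to 3.13) and 1.17 in males (0.30 to 2.04), by a normal approximation on log counts. The SJL/J ratios rest on 7 and 15 Cd79b counts, and a higher Cd79b under the TCR1640 label is not independent of the filter. Whether the counts of either gene keep a fixed proportion to its mRNA was not tested.

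Pax5 (ENSMUSG00000014030, chr4:44524757-44710487, minus strand) is the transcription factor that holds cells to the B lineage. It had 4.72 and 4.77 CPM in TCR1640 females, 5.76 and 5.28 in TCR1640 males, 3.18 and 1.41 in SJL/J females and 3.37 and 2.75 in SJL/J males. The columns of the 2 labels did not overlap, again without a share over all genes. Summed counts were 37 against 19 in females (log2 1.04, 0.21 to 1.92) and 55 against 24 in males (0.83, 0.12 to 1.59). The additive edgeR fit gave 0.95 (SE 0.34, adjusted p = 0.0262). The ratio no longer met the rule without SJL/J female column 2 in females (0.56), or without TCR1640 male column 1 (0.79) or SJL/J male column 2 (0.69) in males. The additive call was lost without SJL/J female 2, TCR1640 female 2, TCR1640 male 1 or SJL/J male 2 in turn (adjusted p 0.0525 to 0.127), with the number 1 columns alone (0.281) and in DESeq2 (0.515). Features opposite to Pax5 share 761 of its exon bases: 5730488B01Rik (636 bases; 12, 23, 22 and 14 counts in TCR1640 females, TCR1640 males, SJL/J females and SJL/J males) and Gm12462 (125 bases; at most 6 counts per group). With their counts added, the Pax5 ratio was 0.37 in females (-0.22 to 0.97), no longer apart, and 0.73 in males (0.16 to 1.32).

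Ebf1 (ENSMUSG00000057098, chr11:44617317-45008091, plus strand), which acts with Pax5 at the head of the B cell programme, was high in a single group. TCR1640 females had 3.41 and 5.27 CPM, TCR1640 males 2.06 and 1.96, SJL/J females 1.71 and 1.41 and SJL/J males 1.81 and 2.75. The 2 TCR1640 female columns lay above the other columns, which ran from 1.41 to 2.75. The strain ratio was 2.77-fold in females (34 against 13 counts, log2 1.47, 0.51 to 2.51) and 0.86-fold in males (20 against 18, log2 -0.21, -1.20 to 0.79). The female ratio no longer met the rule without TCR1640 female column 2 (1.11). Averaged over sex, the additive edgeR change was 0.67 (SE 0.42, adjusted p = 0.250), not called.

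**Figure D2:**
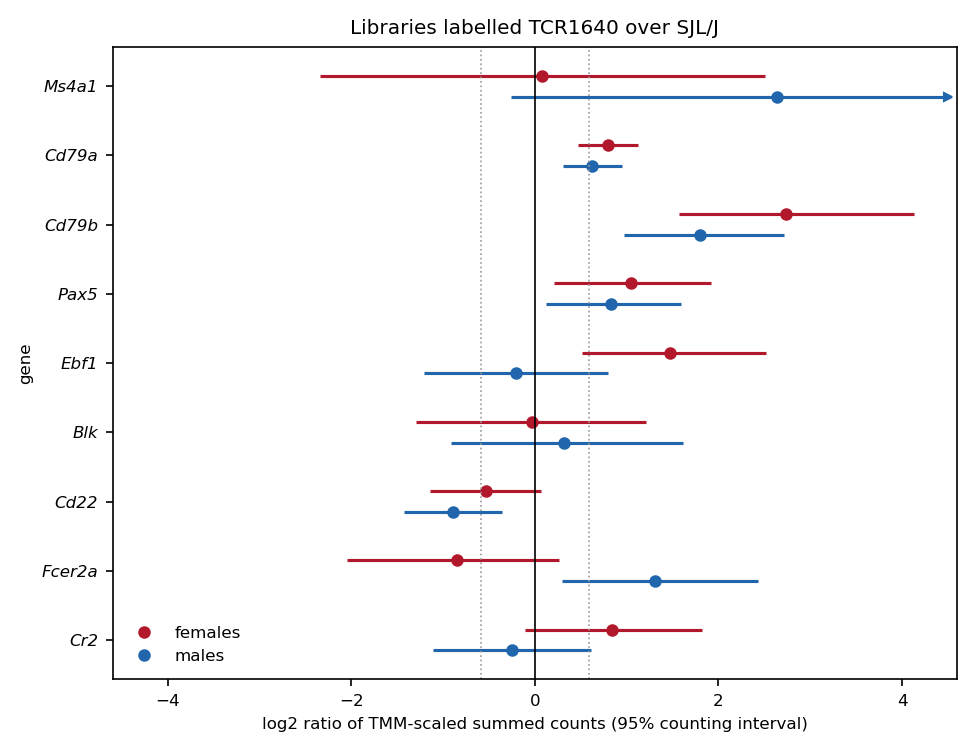
Log2 ratio of libraries labelled TCR1640 over libraries labelled SJL/J (horizontal axis) for each member, in females and in males, from summed counts on TMM-scaled libraries. Bars are 95% counting intervals, arrowheads mark intervals that run off the axis, and dotted lines mark 1.5-fold. Cd79a, Cd79b and Pax5 lie to the right of 1.5-fold in both sexes, while Ebf1, Fcer2a, Cr2 and Blk have opposite signs in the 2 sexes.

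Cd22 (ENSMUSG00000030577, chr7:30865402-30880342, minus strand) is an inhibitory receptor that binds sialic acid and dampens B cell receptor signals. It was the only member called lower under the TCR1640 label. Its columns held 5.50 and 4.77 CPM in TCR1640 females, 5.76 and 4.69 in TCR1640 males, 8.56 and 6.10 in SJL/J females and 8.56 and 10.5 in SJL/J males. All 4 TCR1640 columns lay below all 4 SJL/J columns, again without a share over all genes. The log2 ratio was -0.89 in males (52 against 75 counts, -1.43 to -0.36) and -0.53 in females (40 against 61, -1.14 to 0.07). The additive edgeR fit gave -0.70 (SE 0.26, adjusted p = 0.0341). This call was lost without SJL/J female 1, TCR1640 female 2, TCR1640 male 2 or SJL/J male 2 in turn (adjusted p 0.0727 to 0.109), with either column number alone (0.195 and 0.0692) and in DESeq2 (0.547). Without SJL/J female column 2, Cd22 met the rule in females too, at -0.76.

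Gm29439 is a short annotated antisense feature (chr7:30872733-30873333, plus strand) that shares 479 of its 509 exon bases with Cd22. It held more counts than Cd22 in all 4 groups: 210 in TCR1640 females, 268 in TCR1640 males, 102 in SJL/J females and 79 in SJL/J males. Its direction was opposite, at a log2 ratio of 1.12 in females (0.77 to 1.48) and 1.40 in males (1.03 to 1.78), and 1.28 in the additive edgeR fit (SE 0.18, adjusted p = 2.78e-11). The sum of both features, in which Gm29439 held the larger part, was higher under the TCR1640 label. It stood at 0.70 in females (0.41 to 0.99) and 0.69 in males (0.41 to 0.98). The direction at the Cd22 locus between strain labels therefore depends on which strand is read.

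**Figure D3:**
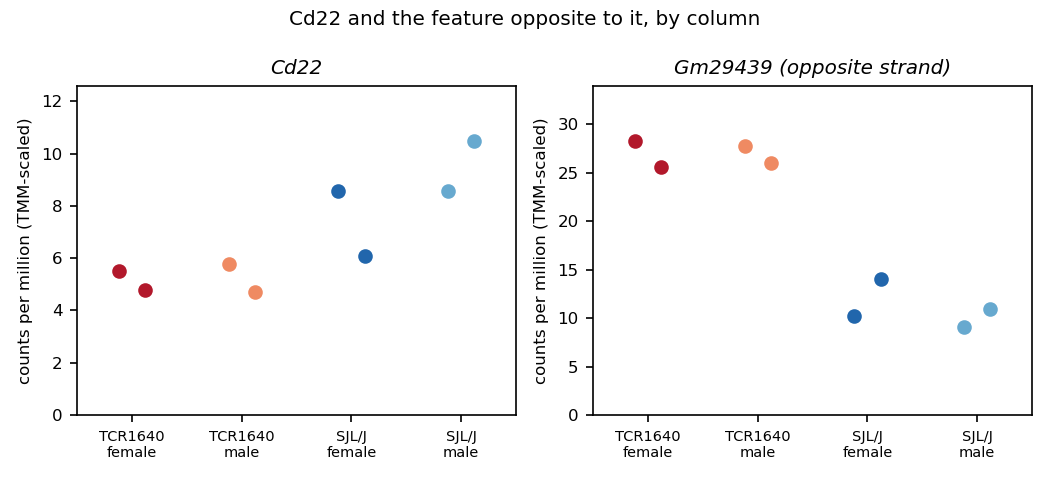
TMM-scaled CPM (vertical axes, from 0, scaled separately) of Cd22 and of Gm29439, the feature opposite to it, in each of the 8 columns by group. The TCR1640 columns lie below the SJL/J columns for Cd22 (at most 5.76 against at least 6.10) and above them for Gm29439 (at least 25.6 against at most 14.1).

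Fcer2a (ENSMUSG00000005540, chr8:3681737-3694175, minus strand) encodes CD23, the low-affinity IgE receptor of mature follicular B cells. It had 0.79 and 2.01 CPM in TCR1640 females, 2.88 and 4.11 in TCR1640 males, 3.18 and 1.88 in SJL/J females and 1.56 and 1.25 in SJL/J males. TCR1640 males were highest and overlapped SJL/J females, while TCR1640 females overlapped both SJL/J groups. The strain ratio was 2.48-fold in males (35 against 11 counts, log2 1.31, 0.30 to 2.43). In females it was -0.85 on the log2 scale (11 against 21 counts, -2.05 to 0.27). The male ratio no longer met the rule without TCR1640 male column 2 (1.03) or SJL/J male column 2 (1.15). Averaged over sex, the additive edgeR change was 0.32 (SE 0.44, adjusted p = 0.659). Trappc5, which lies 481 bases away on the other strand, had 74 to 107 counts per group.

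Cr2 (ENSMUSG00000026616, chr1:195136811-195176716, minus strand), the complement receptor CD21 of marginal zone and follicular B cells, did not differ by the rule in any comparison. It had 3.93 and 3.01 CPM in TCR1640 females, 1.65 and 3.52 in TCR1640 males, 1.71 and 2.11 in SJL/J females and 2.33 and 3.75 in SJL/J males. TCR1640 females and SJL/J males lay above SJL/J females, and TCR1640 males overlapped all the other groups. Its strain ratios were 0.84 in females (-0.11 to 1.83) and -0.25 in males (-1.10 to 0.62). At 16 to 27 counts per group, differences inside these intervals were not detectable.

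Blk (ENSMUSG00000014453, chr14:63372836-63417037, minus strand), a Src-family kinase of the B cell receptor, had 10 to 16 counts per group. Its columns ran from 1.05 to 2.01 CPM in TCR1640 females, 1.56 to 1.65 in TCR1640 males, 1.47 to 1.64 in SJL/J females and 0.50 to 2.08 in SJL/J males. Its strain ratio was -0.03 in females (-1.30 to 1.21) and 0.32 in males (-0.91 to 1.62). Ms4a1 (ENSMUSG00000024673, chr19:11249675-11266241, minus strand), which encodes CD20, had 4 counts in TCR1640 females, 8 in TCR1640 males, 4 in SJL/J females and 1 in SJL/J males. The ratio of 8 to 1 in males had an interval of -0.26 to 8.11, so no difference was detectable at this depth.

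Between the sexes, few members stood apart, and the members in question were not the ones that differed between strain labels in both sexes. In TCR1640, 1 member was higher in males (Fcer2a) and 1 lower (Ebf1), where 2.65% of tested genes were higher and 5.27% lower. Under the SJL/J label 0 members were higher and 0 lower, against 2.96% and 3.95% of genes. The median log2 ratio of male over female was 0.06 in TCR1640 and 0.38 in SJL/J, with all tested genes at -0.00044 and 0.0020. The SJL/J median fell to 0.038 over members with no exon on the opposite strand, to 0.0025 with opposite features added, and to 0.11 without SJL/J female column 2. The TCR1640 median was 0.24 without TCR1640 female column 2, 0.17 without TCR1640 male column 2 and 0.02 without TCR1640 male column 1. The additive edgeR fit called 0 of the 8 members tested between the sexes, and 0 at an unadjusted p under 0.05, a threshold whose share of all genes is not given here. Over all genes the additive edgeR fit called 0.139% higher and 0.962% lower in males. DESeq2 on the same sums called 0 members, and 7 of 17261 genes. With so few genes called by either fit, 0 members does not show that the members were alike in the sexes.

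Fcer2a had 11 counts in TCR1640 females and 35 in TCR1640 males, a log2 ratio of 1.31 (0.30 to 2.44), and stood at 21 in SJL/J females and 11 in SJL/J males (-0.85, -2.05 to 0.27). The TCR1640 sex ratio no longer met the rule without TCR1640 female column 1 (0.80) or TCR1640 male column 2 (1.03). Ebf1 went the other way, from 34 to 20 counts in TCR1640 (-1.12, -2.00 to -0.29) and from 13 to 18 in SJL/J (0.55, -0.56 to 1.70). Without TCR1640 female column 2 the Ebf1 ratio was -0.75 and did not meet the rule. Cd79b was at 7 counts in SJL/J females and 15 in SJL/J males (1.18, -0.20 to 2.72), and it met the rule without SJL/J male column 2 (1.63).

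The difference of the sex ratios between strain labels was computed directly, as the log2 ratio of male over female in TCR1640 minus that in SJL/J. Fcer2a stood at 2.16 (0.72 to 3.60, by a normal approximation on log counts) and Ebf1 at -1.68 (-2.98 to -0.38). The other 7 members had intervals that included 0, and all tested genes held 4.67% higher and 5.79% lower by the same rule. For Ebf1 this difference no longer met the rule without TCR1640 female column 2 (-1.30) or SJL/J male column 2 (-1.35). Cr2, at -1.08 (-2.28 to 0.12) with all columns, met it without TCR1640 male column 2 (-1.74) or SJL/J male column 1 (-1.38).

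**Figure D4:**
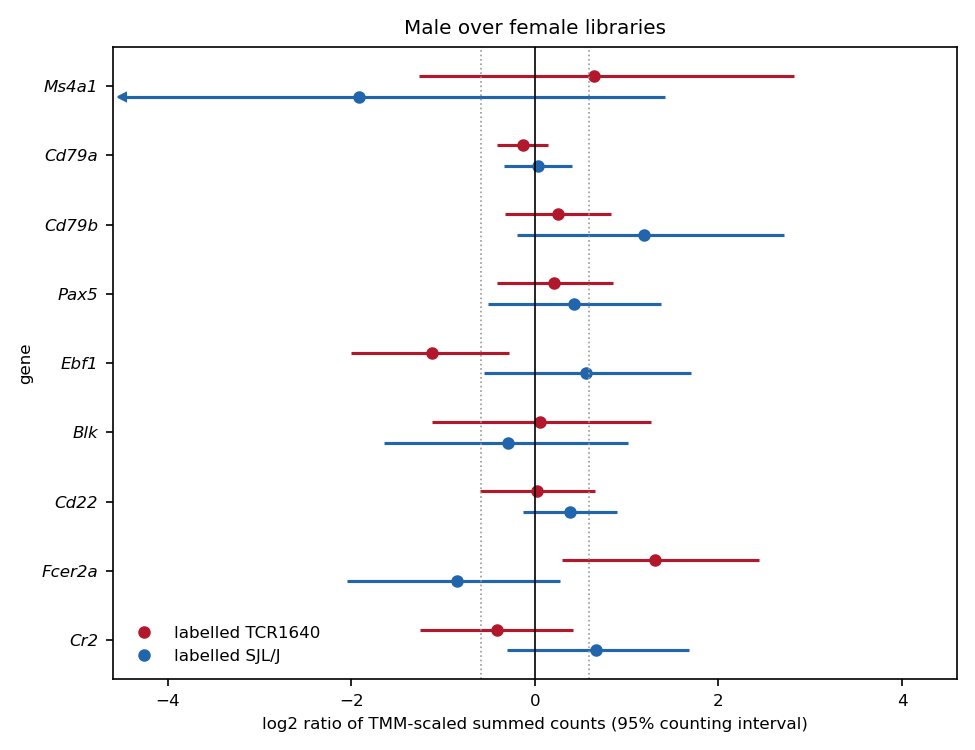
Log2 ratio of male over female libraries (horizontal axis) for each member, within the TCR1640 label and within the SJL/J label, with 95% counting intervals, arrowheads for intervals that run off the axis, and dotted lines at 1.5-fold. Fcer2a and Ebf1 are the members whose TCR1640 intervals exclude equality, in opposite directions, and every SJL/J interval crosses 0.

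Other genes of B cells did not move as 1 block with the members. Among 15 genes of receptor coreceptors and signalling, 13 passed the filter, of which 2 were higher and 3 lower under the TCR1640 label in females, and 2 higher and 5 lower in males. Bank1, an adaptor of B cells, was higher in females (log2 1.33, 0.36 to 2.39) and stood at 0.80 (-0.06 to 1.72) in males. Vav2, a guanine nucleotide exchange factor, was higher in both (0.63 and 1.04). Btk, the kinase downstream of the receptor, was lower in both, with 8 against 60 counts in females (-2.83) and 13 against 79 in males (-2.97). Syk, the kinase that binds the phosphorylated chains Cd79a and Cd79b, was lower in both (-0.78 and -1.40). Btk and Syk are also expressed in myeloid cells.

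Of 11 transcription factors used by B cells, 10 passed the filter, with 3 higher and 3 lower in females and 4 higher and 3 lower in males. Pou2af1, a coactivator of octamer-binding factors in B cells, was higher in both sexes (0.80 and 0.66), as was Ikzf3, a zinc finger factor that T cells also express (0.89 and 1.36). Bach2, likewise shared with T cells, was higher too (0.83 and 1.17) but overlaps Bach2os on the other strand. Spi1, which encodes PU.1 and is high in myeloid cells, was lower in both (-4.78 and -4.10, at 1 and 3 counts in TCR1640 females and males). Mef2c was lower as well (-2.53 and -2.57).

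Of 15 other surface and lineage genes, 10 passed the filter, with 3 higher and 2 lower in females and 5 higher and 2 lower in males. Cd38, a surface enzyme shared with T cells, was higher in both (1.95 and 1.85), and Cd24a, shared with myeloid and red cell precursors, was lower in both (-1.22 and -1.62). Tnfrsf13c, the BAFF receptor, was at 0.03 (-0.79 to 0.84) in females and higher in males (1.14, 0.37 to 1.98). Among 7 germinal centre genes 3 passed, of which 2 were higher and 0 lower in females, and 2 higher and 1 lower in males. The gene lower in males was S1pr2 (-0.76, -1.34 to -0.19), a sphingosine-1-phosphate receptor, which stood at -0.52 (-1.14 to 0.09) in females. The higher genes were Fas (1.88 and 1.26), which activated T cells also express, and Bcl6 (1.09 and 0.77), which overlaps Gm37419. Rgs13 was at 0 in all columns.

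Most immunoglobulin constant genes that passed the filter went against Cd79a and Cd79b. Of 9 measured, 5 passed the filter. All 5 were lower under the TCR1640 label in females, and 4 in males. Ighm, the mu heavy chain, had 669 against 1244 counts in females (log2 -0.81, -0.95 to -0.68) and 759 against 1320 in males (-1.16, -1.29 to -1.03). Igkc, the kappa light chain, was at -1.34 and -2.37, Ighg1 at -4.19 and -2.68, and Igha at -2.50 and -3.12. Among 7 plasma cell genes 5 passed, and Jchain, which joins IgM and IgA into polymers, was the only one lower in each sex (-1.39 and -4.43). Of 5 class II presentation genes 1 was higher and 1 lower in females, and 0 higher and 3 lower in males. The class II gene H2-Ab1 was lower in both (-0.94 and -0.97).

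**Figure D5:**
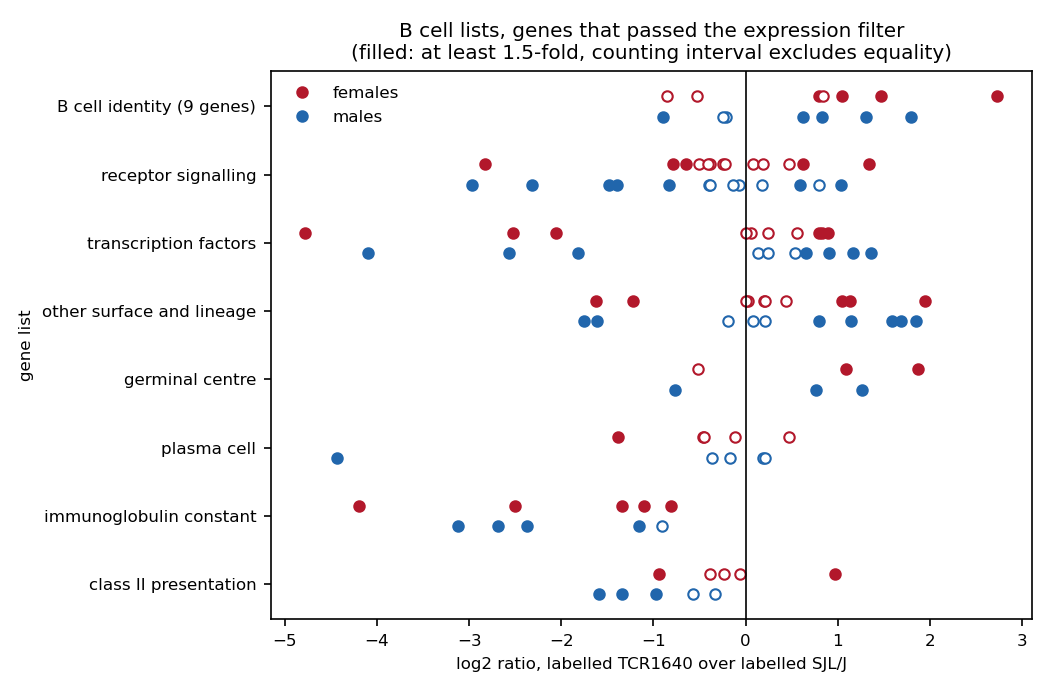
Log2 ratio of libraries labelled TCR1640 over libraries labelled SJL/J (horizontal axis) for genes of 8 B cell lists that passed the filter on low counts, each gene a point, in females and in males. Filled points differ at least 1.5-fold with a counting interval that excludes equality. Of the 5 immunoglobulin constant genes that passed, 5 lie to the left of 0 as filled points in females and 4 in males. Of the 7 identity genes that passed, 4 lie to the right as filled points in each sex.

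Markers of other cell types moved with the strain labels as well. In each case the values are TMM-scaled CPM, as the range of the summed list over the 2 columns of a group. The 6 T cell markers ran at 935 to 951 in TCR1640 females, 1037 to 1054 in TCR1640 males, 740 to 751 in SJL/J females and 825 to 826 in SJL/J males, and 1 of the 6 was higher by the rule, in males (Cd3e, opposite to Gm48719). All 5 neutrophil markers (S100a8, S100a9, Elane, Mpo and Ltf) were lower under the TCR1640 label in both sexes, at 0.75 to 1.57 and 0.21 to 0.78 against 47.7 to 47.9 and 125 to 127. S100a8 and Elane had 0 counts in both TCR1640 groups. Among the 5 stromal and follicular dendritic cell markers measured, Clu was lower (-4.89 and -5.57), and Col3a1 and Pdgfra were at 0 in all columns.

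The remaining marker lists were thin. Of 5 natural killer markers 2 were higher in females (Gzma and Eomes) and 0 in males, with Ncr1 at 0 to 2 counts per group. None of the 5 dendritic cell markers was apart by the rule in a strain comparison, and Clec9a had at most 1 count per group. Of 5 plasmacytoid dendritic cell markers Pacsin1 was higher (1.89 and 2.24), while Siglech had at most 1 count per group. Of 5 monocyte or macrophage markers Lyz2 was lower (-3.58 and -5.29), and Adgre1 had at most 1 count per group. The part of these cell types in the B cell results was not tested.

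The pattern of the summed members over the 4 groups was shared with many genes. Of 10359 non-member genes with a mean log2 level of at least 3, the nearest in shape were Tk2, Ctps2, Tbc1d10c, Marf1 and D830025C05Rik, at root mean square distances of 0.00869 to 0.0227 log2 units over the 4 groups. In total 275 genes lay within 0.1 log2 units. Marf1 and D830025C05Rik overlap other genes on the opposite strand, and 4 groups are few points for such a likeness.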

How the data were processed

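For 8 libraries the authors deposited raw counts as whole numbers, by Ensembl gene. Libraries were made with a KAPA stranded mRNA kit, per the labels' protocols, and bcl2fastq 2.17, Bowtie2, HTSeq and mm10 are named in the submitters' processing notes. For the counting, neither annotation nor strand setting is given in the sources used here. Symbols came from GENCODE M21 on GRCm38, and 147 identifiers were not in it. The 9 members and all gene lists were chosen with earlier results of these data known.

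Columns of a group were summed. Ratios used TMM-scaled totals (edgeR 4.0.16, R 4.3.3) and exact conditional binomial 95% intervals, with a floor of 3 counts over a group. Intervals cover counting error only. The additive model used filterByExpr, the quasi-likelihood F test and two-sided Benjamini-Hochberg adjustment at 0.05, with 1 residual degree of freedom and a common coefficient of variation of 9.78%. DESeq2 1.42.0, RLE, upper-quartile and total-count scaling, and each left-out column were alternatives. The code was tested on simulated data. All members were named, and list genes were named where they met the 1.5-fold rule or define a cell type.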

Additional observations from a re-analysis of the deposited data

Results flagged for a closer look

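The male over female ratio of Ebf1 and of Fcer2a differed between the strain labels, in opposite directions. For Fcer2a the log2 sex ratio in TCR1640 minus that in SJL/J was 2.16, and for Ebf1 it was -1.68, with counting intervals of 0.72 to 3.60 and -2.98 to -0.38. With the 8 columns taken as separate samples, edgeR's quasi-likelihood test of this difference gave an adjusted p of 0.0489 for Fcer2a and 0.116 for Ebf1. Over all genes it called 1616 of 15795. Both members were flagged by this difference in the same counts, so the test is not independent support. That test compares libraries whose spread within a group was close to sampling noise, so it does not measure spread between mice. Without TCR1640 female column 2 or SJL/J male column 2 the Ebf1 value was -1.30 or -1.35 and no longer met the rule. Leaving out each column in turn, the Fcer2a value ran from 1.65 to 3.03. These values rest on 11 to 35 counts per group for Fcer2a and 13 to 34 for Ebf1.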

How the results depend on the processing

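Under RLE, upper-quartile and total-count scaling no member changed its call or direction where it had met the 1.5-fold rule. The median log2 ratio of the members between strain labels was 0.56 to 0.97 in females and 0.14 to 0.99 in males over fits that left out each column in turn. Between the sexes it was 0.02 to 0.24 in TCR1640 and 0.11 to 0.53 in SJL/J. The SJL/J median was 0.038 over members with no exon on the opposite strand and 0.0025 with opposite features added. The additive fit called 2 to 4 members between strain labels without each column in turn, against 3924 to 4330 of 17140 to 17310 genes. It called 2 with the number 1 columns only, against 2981 of 14976 genes. With genes that lack opposite exons it called 2, against 2658 of 11215 (Pax5 and Cd22 are then not in the fit). DESeq2 called 1 member, against 1410 of 17261 genes. Adding opposite features was an alternative chosen after seeing the data, like the single-member ratios. The sum of Cd22 and Gm29439 then stood at 0.70 in females and 0.69 in males, with Cd22 alone at -0.53 and -0.89.

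Some additive changes that were not called also changed sign. Fcer2a between strain labels was -0.34 with the number 1 columns only, and Cd79a between sexes was 0.14 with the number 2 columns only. Leaving out each column, the changes ran from -0.19 to 0.51 for Blk between strain labels and, between sexes, from -0.14 to 0.048 for Cd79a, -0.43 to 0.22 for Blk, -0.029 to 0.69 for Fcer2a and -0.15 to 0.33 for Cr2.

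Same-numbered columns did not deviate together (correlations of -0.015 to 0.027 over 6 pairs of groups). Deviations inside a group were almost all counting error, which gives such correlations whether or not samples are paired. Whether the numbers pair samples therefore cannot be told from these values. With the replicate block in an 8-column fit, 4 of the 9 members were called between strain labels, against 7856 of 15795 genes. Between sexes 0 members were called, against 2872 genes. This fit takes the columns of a group as separate samples, so it does not measure spread between mice. Its median ratios between strain labels were 0.81 in females and 0.64 in males. Between sexes they were 0.06 in TCR1640 and 0.38 in SJL/J, and the difference of the sex ratios was -0.20. At 1 to 75 counts per group for every member but Cd79a, depth limits what could be detected.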
